A study of Mus musculus with 4 samples.

Results

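Retnlg-high neutrophils were followed in the pleural fluid of C57BL/6 mice that carried malignant pleural effusions of Lewis lung carcinoma (LLC), a mouse lung tumour line. They were chosen from single-cell counts by a rule on their own transcripts. A barcode was first kept if it held 1000 to 10000 unique molecular identifiers (UMIs, 1 per captured RNA molecule), at least 200 genes and at most 10% of its UMIs from mitochondrially encoded (mt-) genes. It was then called a neutrophil if it held at least 1 UMI of Csf3r, the receptor for granulocyte colony-stimulating factor, no UMI of the macrophage receptor gene Csf1r, and at least 50 UMIs of S100a8 and S100a9 together per 10000. S100a8 and S100a9 encode the subunits of calprotectin. A neutrophil with at least 100 Retnlg UMIs per 10000 was Retnlg-high, and the others were Retnlg-low. Of 4744 barcodes within the limits, 2629 were neutrophils, and 537 of these were Retnlg-high.

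The mice had received 1 intrapleural treatment on day 11, and pleural cells were taken on day 13. The LNP-cGAMP group received 1 µg of cGAMP, the cyclic dinucleotide ligand of STING, in lipid nanoparticles (LNP). The anti-PD-L1 group received 30 µg of the antibody 10F.9G2 against PD-L1, the combination group received both agents, and the PBS group received the buffer alone. Each group was 1 library made from the pooled cells of 3 mice, and red cells had been lysed. With 1 library per treatment no difference between treatments could be tested, and every interval given for one covers counting error only.

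Neutrophils fill their granules in waves as they mature in the bone marrow: primary granules first, then secondary granules, then gelatinase granules. The transcripts of these granule proteins decline as the cells leave the marrow and age. Retnlg encodes resistin-like gamma, a small secreted protein made in mice by neutrophils and their late precursors. STING activation switches on type I interferon genes, whose products in turn induce a broad set of interferon-stimulated genes and MHC class I.

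Promoters are shown for 4 genes that tell the Retnlg-high state apart, because the cells were chosen on the first and the other 3 encode granule proteins that follow it. The RefSeq windows (GRCm38.p6) held the 250 bases before and the 50 bases after each gene's start, and the 250 bases before the start are printed from 5′ to 3′ on the gene's strand. Capitals mark matches to TTNNGCAA, a core of the binding motif of C/EBP factors, on either strand. The stretches lie at chr16:48872358-48872607 (+ strand, Retnlg), chr9:110419558-110419807 (+ strand, Ngp), chr9:7558179-7558428 (+ strand, Mmp8) and chr2:32387740-32387989 (− strand, Lcn2).
Retnlg: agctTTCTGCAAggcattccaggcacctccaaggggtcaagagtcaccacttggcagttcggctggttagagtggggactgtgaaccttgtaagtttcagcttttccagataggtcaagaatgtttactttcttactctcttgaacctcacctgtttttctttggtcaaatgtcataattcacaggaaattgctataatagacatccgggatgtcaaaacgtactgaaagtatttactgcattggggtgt
Ngp: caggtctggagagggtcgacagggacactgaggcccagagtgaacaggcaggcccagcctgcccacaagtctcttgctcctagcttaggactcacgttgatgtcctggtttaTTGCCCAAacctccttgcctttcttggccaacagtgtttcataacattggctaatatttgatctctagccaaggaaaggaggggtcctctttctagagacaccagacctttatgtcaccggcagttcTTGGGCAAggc
Mmp8: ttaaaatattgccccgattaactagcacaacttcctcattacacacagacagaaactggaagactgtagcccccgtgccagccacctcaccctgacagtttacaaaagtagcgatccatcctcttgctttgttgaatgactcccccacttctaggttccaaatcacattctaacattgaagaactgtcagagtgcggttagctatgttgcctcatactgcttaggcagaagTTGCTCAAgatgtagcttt
Lcn2: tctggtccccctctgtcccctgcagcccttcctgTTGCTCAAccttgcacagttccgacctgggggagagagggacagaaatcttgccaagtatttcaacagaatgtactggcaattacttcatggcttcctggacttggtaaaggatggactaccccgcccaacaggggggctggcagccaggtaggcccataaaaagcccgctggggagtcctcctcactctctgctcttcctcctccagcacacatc

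The Retnlg window held 1 match, which began 246 bases before the start. Ngp held 2, beginning 138 and 11 bases before the start, Mmp8 held 1 at 19 bases and Lcn2 held 1 at 216 bases, and no 2 matches overlapped. The windows of Cd177 and Ifitm6, granule list genes also higher in Retnlg-high cells, were searched and held none. That of the interferon-induced gene Ifi47, lower in Retnlg-high cells, held 2. The motif was no mark of the state as a whole: 12.9% of the genes higher in Retnlg-high cells held it (18 of 139 with a window), against 11.0% of all genes tested and 12.2% of all genes in the RefSeq table. A match is a stretch of letters and shows no binding.

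The cells matched their name. In Retnlg-high cells, Retnlg summed to 377, 189, 272 and 218 UMIs per 10000 in the LNP-cGAMP, anti-PD-L1, combination and PBS libraries, against 23, 24.4, 28.9 and 17.4 in Retnlg-low cells. S100a8 summed to 1060 (LNP-cGAMP), 1115 (anti-PD-L1), 1163 (combination) and 958 (PBS) per 10000 in Retnlg-high cells and to between 555 and 770.1 in Retnlg-low cells. S100a9 gave 1134, 1319, 1239 and 978 per 10000 in Retnlg-high cells of the same libraries, against 624 to 892 in Retnlg-low cells. These values chose the cells and are a description. Csf3r, of which the rule asked only for 1 UMI, was at 12.0 to 15.3 per 10000 in Retnlg-high cells and 14.4 to 19.5 in Retnlg-low cells.

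Retnlg was graded, with no gap at the limit. In the LNP-cGAMP, anti-PD-L1, combination and PBS libraries, 27, 24, 25 and 22 neutrophils lay just inside it, from 100 to 125 UMIs per 10000, and 25, 35, 19 and 18 lay just outside it, from 80 to 100. The level inside the chosen cells also differed between libraries. The median Retnlg-high cell held 266 Retnlg UMIs per 10000 in the LNP-cGAMP library, 156 in the anti-PD-L1 library, 205 in the combination library and 162 in the PBS library. For Ifit3, Mmp8, Lcn2, Chil3, Ngp, Mif and Gapdh, the comparisons between treatments below also give cells of 100 to 200 Retnlg UMIs per 10000.

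Retnlg-high cells were deeper than Retnlg-low cells of their own library. Their median UMI count was 3106 (LNP-cGAMP), 2833 (anti-PD-L1), 2994 (combination) and 2434.5 (PBS), against 2265.5, 2256.5, 2393 and 2094 in Retnlg-low cells of the same libraries. All 27998 gene rows were shared by the libraries, which held 68828158 to 88855120 UMIs over all barcodes. Between 2 and 11 kept barcodes were shared by each pair of libraries, and none of these was a neutrophil. RNA of near-empty barcodes (10 to 100 UMIs) was estimated at 5.78% (LNP-cGAMP), 4.71% (anti-PD-L1), 8.72% (combination) and 13.1% (PBS) of the neutrophils' UMIs. Sex-linked transcripts separated the libraries: every LNP-cGAMP and PBS neutrophil that held one had Y-linked UMIs and no Xist, whereas 19 anti-PD-L1 and 19 combination Retnlg-high cells had Xist alone, and 4 and 2 had Y-linked UMIs alone. The sex of the mice thus cannot be told apart from the treatment where anti-PD-L1 or combination cells are compared with LNP-cGAMP or PBS cells.

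Markers of other cell types were compared over their lists. The 7 macrophage markers summed to 658, 490, 1103 and 1482 CPM (UMI counts of a gene over all UMIs, scaled to 1000000) in Retnlg-high cells of the LNP-cGAMP, anti-PD-L1, combination and PBS libraries, against 666, 507, 1148 and 1596 CPM in Retnlg-low cells. The totals behind CPM leave out the UMIs of the 5 genes of the rule. T cell markers summed to at most 31.8 CPM, NK cell markers to at most 30.0 CPM, and all B cell markers were at 0 in the Retnlg-high cells of every library. Eosinophil markers summed to 7.06, 10.3, 22.5 and 19.3 CPM there, and red cell markers to 3.75 to 15.5 CPM. Red cell markers reached 2907 CPM in the Retnlg-low cells of the PBS library.

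The share of neutrophils that were Retnlg-high differed between libraries and was high in both that received LNP-cGAMP. It was 29.3% (231 of 789) with LNP-cGAMP, with a 95% exact binomial (Clopper-Pearson) interval of 26.1 to 32.6%. With the combination it was 26.1% (121 of 464, 22.1 to 30.3%). With anti-PD-L1 alone it was 12% (87 of 725, 9.72 to 14.6%), and with PBS 15.1% (98 of 651, 12.4 to 18.0%). The intervals of the LNP-cGAMP and combination libraries did not meet those of the anti-PD-L1 and PBS libraries. They cover counting error only and leave out the spread between pools of mice.

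**Figure D1:**
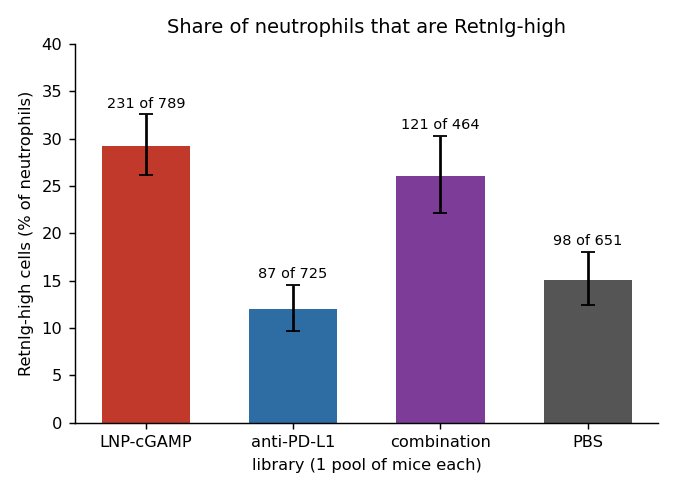
Share of neutrophils that were Retnlg-high in each library (bars, % of neutrophils) with 95% exact binomial intervals for counting error only (lines), and the numbers of cells above. LNP-cGAMP (29.3%) and the combination (26.1%) lie above anti-PD-L1 (12%) and PBS (15.1%).

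The order of the shares held when each cell was thinned to 1000 UMIs, except that the combination then came first: 26.4% with LNP-cGAMP, 13.4% with anti-PD-L1, 27.2% with the combination and 15.9% with PBS. With the limit at 200 Retnlg UMIs per 10000 the shares were 19.5% (LNP-cGAMP), 3.72% (anti-PD-L1), 14.0% (combination) and 5.68% (PBS). As a share of all kept barcodes, Retnlg-high neutrophils were 15.9%, 7.27%, 12.2% and 8.86% in the same order. Retnlg-low neutrophils made up the rest of a neutrophil share of 54.4% (LNP-cGAMP), 60.6% (anti-PD-L1), 46.8% (combination) and 58.9% (PBS).

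Free Retnlg RNA was low beside these levels. A Retnlg UMI was found in 6 of 76 T cell barcodes of the LNP-cGAMP library, 0 of 74 of the anti-PD-L1 library, 3 of 60 of the combination library and 2 of 55 of the PBS library, although these barcodes were deeper (medians of 4743 to 5931.5 UMIs). After subtraction of near-empty RNA, the Retnlg-high shares were 29.9%, 12.3%, 28.0% and 17.0% in the same order.

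Beyond the genes of the rule, Retnlg-high cells differed from Retnlg-low cells in granule genes, which were higher, and in interferon-stimulated and antigen presentation genes, which were lower. UMIs were summed per library and state without the 5 rule genes and compared with edgeR's quasi-likelihood test, with the 4 libraries as blocks and Benjamini-Hochberg adjustment over 4834 genes. At an adjusted p under 0.05, 195 genes were higher in Retnlg-high cells (4.03% of the genes tested) and 160 were lower (3.31%), together 7.34%, with a median log2 difference over all genes of −0.01. Each pool of mice gave both states, so the spread is that between 4 pools under different treatments. The block pairs the states by pool and not by mouse. In the anti-PD-L1 library 19 Retnlg-high cells had Xist alone and 4 had Y-linked UMIs alone, against 76 and 59 Retnlg-low cells. In the combination library these were 19 and 2, against 49 and 3. The part of mouse or sex in the differences between states was not tested. The calls rest on pairing the states within libraries: without the library block 27 genes were higher and 7 lower, and all 34 were among the 355. DESeq2, which made fewer calls, gave 107 and 53, and those 160 were all among them. Left out 1 at a time, the libraries gave 185 and 90 calls (without LNP-cGAMP), 123 and 99 (without anti-PD-L1), 123 and 82 (without the combination) and 155 and 122 (without PBS).

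**Figure D2:**
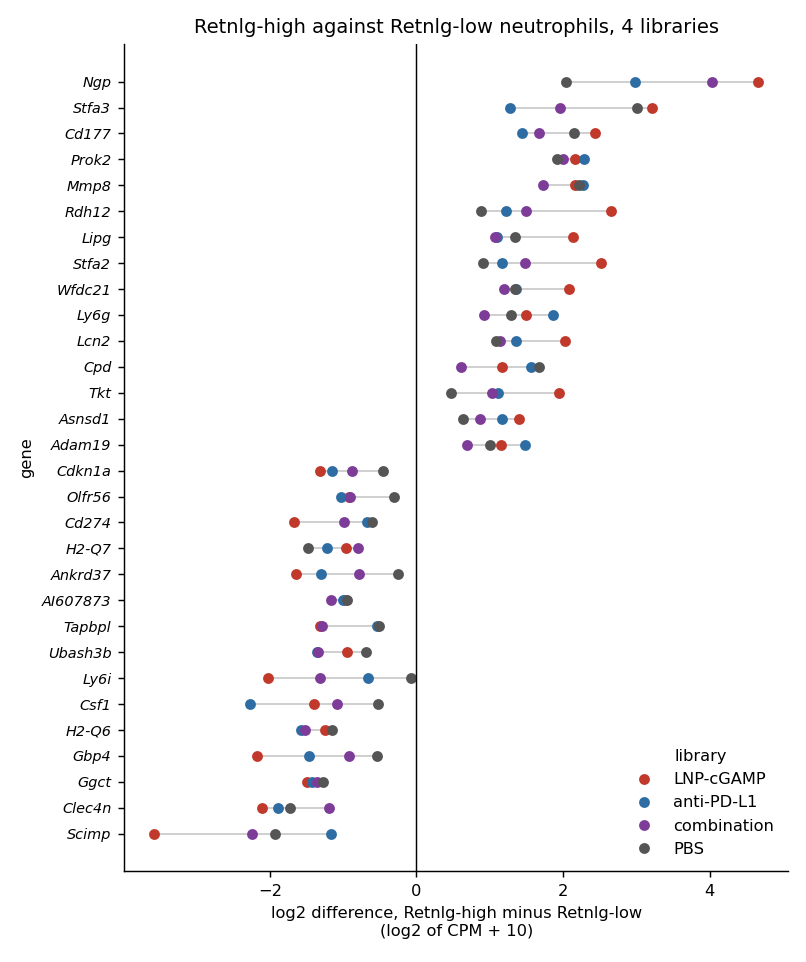
Log2 difference (CPM + 10) between Retnlg-high and Retnlg-low neutrophils for the 15 most raised and the 15 most lowered genes under the naming rule (rows), 1 point per library. All 4 libraries lie on the same side of 0 for each of these genes, as the rule asked.

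Secondary granule genes were higher in Retnlg-high cells: 5 of 6 tested rose, none fell, and the median log2 difference was 1.34. The same count was called with any 1 library left out. Without the library block 3 of 6 rose, and with cells thinned to 1000 UMIs 4 of 5 tested rose. Ngp, which encodes neutrophilic granule protein, was at 353, 124, 390.1 and 57.9 CPM in Retnlg-high cells of the LNP-cGAMP, anti-PD-L1, combination and PBS libraries, against 4.33, 6.88, 14.4 and 6.55 CPM in Retnlg-low cells. The 2 states did not overlap, and the log2 difference was 4.86 ± 0.27 (SE, adjusted p = 3.21e-10 by edgeR's quasi-likelihood test). Ngp came from few cells: 47 of 231, 9 of 87, 19 of 121 and 7 of 98 Retnlg-high cells held a UMI, against 5 of 558, 9 of 638, 7 of 343 and 7 of 553 Retnlg-low cells in the same library order. The single highest cell gave 23%, 37.5%, 30.8% and 50% of the Retnlg-high Ngp UMIs.

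Lcn2 encodes lipocalin 2, which withholds iron from bacteria by binding their siderophores. It was at 9616 (LNP-cGAMP), 4721 (anti-PD-L1), 4561 (combination) and 3404 CPM (PBS) in Retnlg-high cells, against 2358, 1838, 2073 and 1597 CPM in Retnlg-low cells. Every Retnlg-high value lay above every Retnlg-low value, with a log2 difference of 1.48 ± 0.12 (SE, adjusted p = 1.04e-07, edgeR's quasi-likelihood test).

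Cd177, a surface glycoprotein that neutrophils also store in secondary granules, was at 203, 108, 109 and 96.6 CPM in Retnlg-high cells of the LNP-cGAMP, anti-PD-L1, combination and PBS libraries, against 29.5, 33.6, 27.3 and 14.0 CPM in Retnlg-low cells. The states again did not overlap (log2 difference 2.40 ± 0.21 SE). Ifitm6, of a family of membrane proteins that restrict viral entry, and Hp, the haemoglobin scavenger haptoglobin, were higher by 1.21 and 0.52 on the log2 scale. Chil3, a chitinase-like secreted protein on the same list, did not pass the test (log2 difference −0.12, adjusted p = 0.699 by edgeR's quasi-likelihood test). Ltf (lactoferrin) and Camp (cathelicidin), which mark earlier marrow stages of granule filling, were too low to test, at 3.53 to 5.15 CPM and 0 to 8.82 CPM in Retnlg-high cells. Of the primary granule and progenitor genes 2 of 7 could be tested and none was called.

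Of 11 genes of gelatinase granules and mature neutrophils 7 rose and none fell, with a median of 0.52, and without the library block 1 rose. Mmp8, the neutrophil collagenase, was at 5827, 1603, 3046 and 1048 CPM in Retnlg-high cells of the LNP-cGAMP, anti-PD-L1, combination and PBS libraries, against 1294, 323, 911 and 217 CPM in Retnlg-low cells. Within each library the Retnlg-high cells were higher, although the LNP-cGAMP Retnlg-low cells exceeded the PBS Retnlg-high cells (log2 difference 2.18 ± 0.11 SE, adjusted p = 1.27e-10 by edgeR's quasi-likelihood test).

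Wfdc21, a small secreted protein with a whey acidic protein domain, was at 4710.3 (LNP-cGAMP), 3871 (anti-PD-L1), 3848 (combination) and 3235 CPM (PBS) in Retnlg-high cells, against 1101, 1508, 1681 and 1268 CPM in Retnlg-low cells. Its log2 difference was 1.57 and the states did not overlap. The other called members were Anxa1, which encodes the pro-resolving protein annexin A1 (0.98), Pglyrp1, a peptidoglycan-binding protein (0.81), the calcium-binding genes S100a6 (0.77) and S100a11 (0.52), and the lysozyme gene Lyz2 (0.33). The Lyz2 call was weak and held in only 2 of 13 alternative settings of the test, such as DESeq2 or a library left out. Mmp9, the gelatinase itself, had a log2 difference of 0.30 and did not pass (adjusted p = 0.0797, edgeR's quasi-likelihood test).

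Several genes outside these lists were among the 15 with the highest fold change, taken over called genes with a mean of at least 50 CPM and the same sign in every library. Prok2, the myeloid chemoattractant prokineticin 2, was at 549, 397, 525 and 237 CPM in Retnlg-high cells of the LNP-cGAMP, anti-PD-L1, combination and PBS libraries, against 115, 73.4, 124 and 55.2 CPM in Retnlg-low cells (log2 difference 2.28). Ly6g, whose product is the antigen commonly used to identify mouse neutrophils, was higher by 1.53 on the log2 scale, and 35.1%, 39.1%, 38.0% and 21.4% of Retnlg-high cells held a UMI of it, against 12.5%, 13.2%, 16.0% and 8.86% of Retnlg-low cells. Stfa3 and Stfa2, which encode cysteine protease inhibitors of the stefin A family, were higher by 2.64 and 1.62, but near-identical family members may share their reads and their values are uncertain.

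The remaining genes of the 15 were Rdh12, a retinol dehydrogenase (1.81), Lipg, a lipase (1.70), Cpd, carboxypeptidase D (1.42), Tkt, transketolase of the pentose phosphate pathway (1.35), Asnsd1 (1.27) and Adam19, a membrane metalloprotease (1.26). Outside them, Slc2a3, the glucose transporter GLUT3, was at 226, 242, 218 and 270.4 CPM in Retnlg-high cells of the LNP-cGAMP, anti-PD-L1, combination and PBS libraries, against 108, 81.1, 103 and 135 CPM in Retnlg-low cells, and was the sole called gene of 20 for hypoxia and glycolysis (log2 difference 1.23). The median of that list was −0.03.

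Receptors that guide neutrophils into and out of the circulation mostly did not separate the states: of 16 trafficking and chemoattractant receptor genes 1 rose and 3 fell, and the median was −0.04. Cxcr2, the receptor that draws mature neutrophils out of the marrow, was at 2091, 2041, 1962 and 1960.4 CPM in Retnlg-high cells, against 2079, 1781, 1987 and 2004 CPM in Retnlg-low cells. The log2 differences of Cxcr2 (0.10, SE 0.09) and of the marrow-retention receptor Cxcr4 (−0.41, SE 0.13) did not pass. Fpr1, the formyl peptide receptor, rose (0.56). Icam1 (−2.14), the platelet-activating factor receptor gene Ptafr (−0.57) and Ccrl2, a chemerin-binding receptor (−0.93), fell. The call of Ptafr held in 6 of 13 alternative settings.

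Among chemokines, Ccl6 was higher in Retnlg-high cells, at 3569, 3634, 3631 and 4070.5 CPM in the LNP-cGAMP, anti-PD-L1, combination and PBS libraries, against 1413, 1989, 2258 and 2842 CPM in Retnlg-low cells (log2 difference 0.92). Of 9 chemokine genes tested 1 rose and 3 fell. Cxcl10, an interferon-induced ligand of CXCR3 on T cells, was at 44.1 (LNP-cGAMP), 30.9 (anti-PD-L1), 165 (combination) and 4.83 CPM (PBS) in Retnlg-high cells, against 494, 155, 136 and 216 CPM in Retnlg-low cells. It fell by 2.07 on the log2 scale, although the combination library had the opposite order. Ccl3 fell by 1.96 and Ccl5 by 1.23, but both rest on few cells: 1 cell gave 73.0% of the Ccl3 UMIs of LNP-cGAMP Retnlg-low cells, and another gave 82.4% of the Ccl5 UMIs of anti-PD-L1 Retnlg-low cells. Neutrophil-attracting Cxcl2 (0.33) and Cxcl3 (0.41) did not pass.

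Interferon-stimulated genes were lower in Retnlg-high cells: 11 of 37 tested fell, none rose, 36 of 37 had a negative log2 difference, and the median was −0.31. The count was 6 without the LNP-cGAMP library, 7 without anti-PD-L1, 4 without the combination and 8 without PBS, 2 with DESeq2 and 0 without the library block. The median was −0.19 without the LNP-cGAMP library. The size of the gap differed between libraries. Summed over the list, Retnlg-high cells held 46697 (LNP-cGAMP), 52519 (anti-PD-L1), 52637 (combination) and 35630 CPM (PBS). Retnlg-low cells held 64828, 55479, 61092 and 36905 CPM, so the states were closest with PBS. Isg15, a ubiquitin-like interferon-induced protein, was at 2749, 2716, 2952 and 1386 CPM in Retnlg-high cells of the LNP-cGAMP, anti-PD-L1, combination and PBS libraries, against 4343, 3603, 3647 and 2071 CPM in Retnlg-low cells. Each library had its Retnlg-high value below its Retnlg-low value (log2 difference −0.42 ± 0.10 SE, adjusted p = 0.00749 by edgeR's quasi-likelihood test). Ifi47, an interferon-induced GTPase, fell by 0.63 and Pyhin1, of a family with DNA sensors, by 0.94. Gbp4, a guanylate-binding protein also induced by interferon, had the lowest ratio of these (log2 difference −1.67).

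MHC class I presentation genes moved the same way. Of 17 tested, 11 fell and none rose, all 17 differences were negative, and the median was −0.47. Between 7 and 10 fell with 1 library left out, 7 with DESeq2 and 0 without the library block. B2m, the light chain of every class I molecule, was at 2816, 2185, 2731 and 1767 CPM in Retnlg-high cells of the LNP-cGAMP, anti-PD-L1, combination and PBS libraries, against 4968, 2962, 3623 and 2721 CPM in Retnlg-low cells (log2 difference −0.51 ± 0.10 SE, adjusted p = 0.00224 by edgeR's quasi-likelihood test). The peptide transporter gene Tap2 fell by 0.71, Nlrc5, the transactivator of class I genes, by 0.67, and the classical class I gene H2-K1 by 0.34. H2-Q6 and H2-Q7, non-classical class I genes that may share reads, fell by 1.46 and 1.01.

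Promoters of 3 interferon-stimulated genes are shown because they carry the second pattern, lower in Retnlg-high cells (Isg15, Cxcl10) or different between treatments (Ifit3, below). The layout is that of the promoters above, and capitals mark matches to the core of the interferon-stimulated response element (ISRE), searched as GAAA, any 2 bases and GAAA again, on either strand. The stretches lie at chr4:156200819-156201068 (− strand, Isg15), chr19:34583279-34583528 (+ strand, Ifit3) and chr5:92348890-92349139 (− strand, Cxcl10).
Isg15: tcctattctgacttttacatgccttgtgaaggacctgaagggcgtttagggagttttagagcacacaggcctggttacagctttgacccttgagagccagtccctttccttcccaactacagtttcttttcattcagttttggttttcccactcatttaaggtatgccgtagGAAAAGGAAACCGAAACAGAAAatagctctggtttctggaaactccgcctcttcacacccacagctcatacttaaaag
Ifit3: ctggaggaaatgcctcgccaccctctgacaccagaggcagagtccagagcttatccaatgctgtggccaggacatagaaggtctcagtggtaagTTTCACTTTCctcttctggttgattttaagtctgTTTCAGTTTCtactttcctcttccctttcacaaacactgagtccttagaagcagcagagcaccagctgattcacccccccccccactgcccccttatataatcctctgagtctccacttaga
Cxcl10: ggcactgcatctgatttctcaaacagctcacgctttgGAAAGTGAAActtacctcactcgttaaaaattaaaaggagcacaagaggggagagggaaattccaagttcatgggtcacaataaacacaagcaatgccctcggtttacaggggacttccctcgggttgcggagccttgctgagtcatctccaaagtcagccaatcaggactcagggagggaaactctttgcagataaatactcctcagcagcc

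Isg15 held 3 matches, which overlap one another and begin 78, 72 and 66 bases before the start. Ifit3 held 2, at 156 and 122 bases, and Cxcl10 held 1 at 213 bases. The windows of H2-Q6, H2-Q7, Isg20 and Ifi47 held none, and those of H2-Q6 and H2-Q7 share a run of 67 identical bases. Over all genes, 17.1% of those lower in Retnlg-high cells held the element (21 of 123 with a window), against 1.44% of those higher (2 of 139), 5.26% of all genes tested and 3.99% of all genes in the RefSeq table. These shares are a description and were not tested.

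Tumour-associated neutrophil genes were lower or did not pass, with 4 of 13 fallen, none risen and a median of −0.42 (2 fallen and a median of −0.14 without the LNP-cGAMP library). Cd274 encodes PD-L1, the target of the antibody. It was at 196, 309, 191 and 295 CPM in Retnlg-high cells of the LNP-cGAMP, anti-PD-L1, combination and PBS libraries, against 644, 501, 389 and 452 CPM in Retnlg-low cells. The states did not overlap (log2 difference −0.99 ± 0.16 SE, adjusted p = 0.000574 by edgeR's quasi-likelihood test). A Cd274 UMI was found in 33.8%, 39.1%, 33.9% and 41.8% of Retnlg-high cells, against 61.8%, 58.2%, 49.6% and 46.5% of Retnlg-low cells, although the Retnlg-high cells were the deeper.

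Clec4n, which encodes the fungal pattern receptor dectin-2, was at 88.2, 124, 176 and 121 CPM in Retnlg-high cells of the same libraries, against 412, 483, 415 and 424 CPM in Retnlg-low cells (log2 difference −1.75). Siglecf, a sialic acid receptor of eosinophils and of some tumour neutrophils, fell by 1.37 at levels of at most 22.5 CPM in Retnlg-high cells, and the protease inhibitor gene Cstb fell by 0.65. The call of Siglecf held in 5 of 11 alternative settings, and that of Cstb in 8 of 13. Scimp, an adaptor of Toll-like receptor signalling, had the lowest fold change of the named genes, at 12.3, 108, 26.3 and 57.9 CPM in Retnlg-high cells, against 257, 255, 161 and 248 CPM in Retnlg-low cells (log2 difference −2.44 ± 0.30 SE, adjusted p = 2.38e-05 by edgeR's quasi-likelihood test).

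Other genes among the 15 with the lowest fold change by the same rule were Ggct, which acts in glutathione turnover (−1.69), Csf1, the macrophage growth factor (−1.34), Ly6i (−1.29), the phosphatase gene Ubash3b (−1.13), Tapbpl, an editor of class I peptides (−1.09), AI607873 (−1.05), Ankrd37 (−1.04), Olfr56 (−0.97) and the cell-cycle inhibitor gene Cdkn1a (−0.97). The call of Ankrd37 was lost without LNP-cGAMP or without anti-PD-L1, and that of Olfr56 without LNP-cGAMP, anti-PD-L1 or the combination. In the remaining lists few genes were called. The Fc receptor genes Fcgr4 (−0.62) and Fcgr1 (−0.60) fell and the inhibitory receptor gene Pirb (0.39) rose. Of 13 alternative settings, the call held in 12 for Fcgr4, 6 for Fcgr1 and 5 for Pirb. Fos (0.73) and the chromatin protein gene Hmgb2 (0.55) rose, and the pro-apoptotic gene Bax (−0.96) and the stress factor gene Atf3 (−1.67) fell. A Fos UMI was found in 51.1%, 19.5%, 34.7% and 20.4% of Retnlg-high cells of the LNP-cGAMP, anti-PD-L1, combination and PBS libraries. In Retnlg-low cells these were 29.9%, 17.1%, 22.2% and 21.2%, so the states were close in the anti-PD-L1 and PBS libraries. None of 10 interleukin-1 and inflammasome genes passed, nor did any of 6 macrophage markers (median 0.04).

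The same genes were also read in bins of Retnlg, from cells without it to the highest. In the LNP-cGAMP library Mmp8 was at 8514 CPM in the 68 neutrophils with at least 400 Retnlg UMIs per 10000, against 736 CPM in the 182 neutrophils with no Retnlg UMI. Lcn2 was at 14394 CPM in the first of these and 1228 CPM in the second, and Ngp at 914 CPM and 2.81 CPM. Isg15 ran the other way, at 1897 CPM in the first and 3979 CPM in the second, as did B2m, at 2166 and 5785 CPM. The steps between were not even: Isg15 was at 4753 CPM in LNP-cGAMP cells above 0 and up to 25, and in the combination library it was highest at 100 to 200, at 4114 CPM, against 3415 CPM in cells without Retnlg. Mmp8 in the anti-PD-L1 library was at 1426 CPM in the highest bin and 1982 CPM in the bin before it. The highest bin held only 4, 15 and 7 cells in the anti-PD-L1, combination and PBS libraries. All neutrophils of a bin share a library, so the bins are a description.

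**Figure D3:**
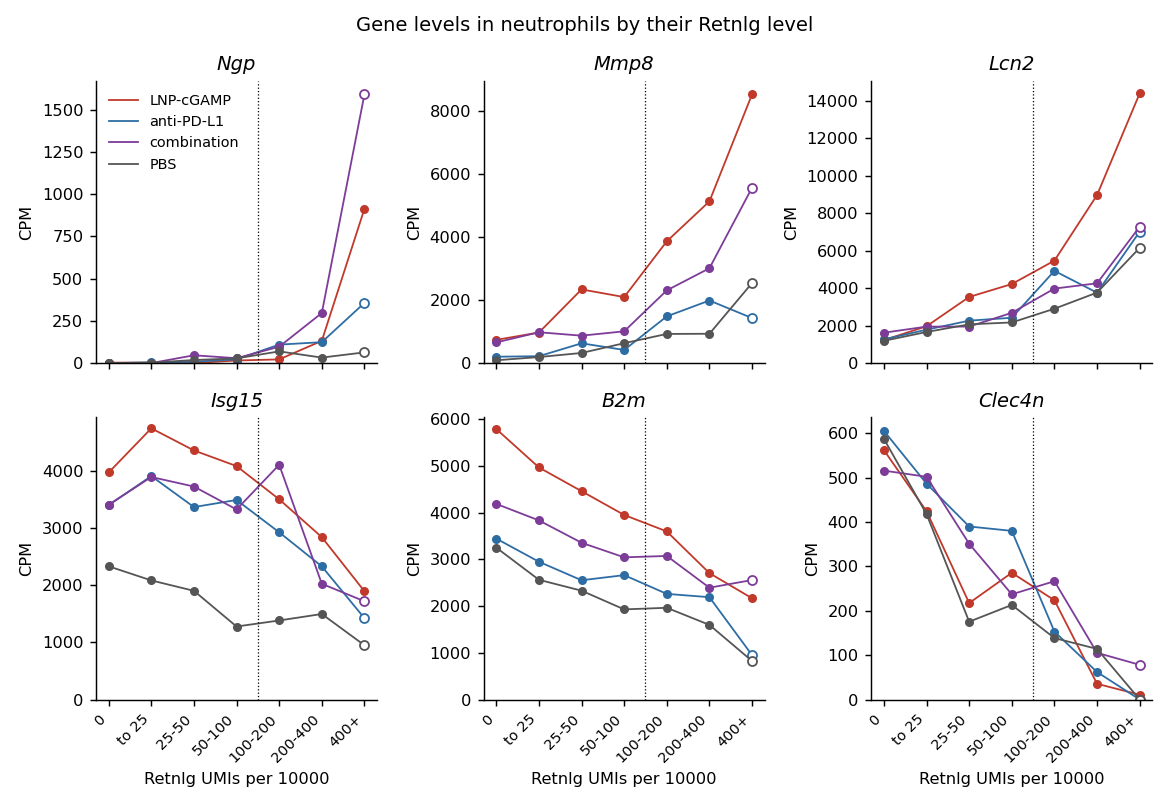
Level (CPM, linear axes) of 6 genes in neutrophils grouped by Retnlg UMIs per 10000 (horizontal axis), 1 line per library; open points mark bins of few cells. In each library Ngp, Mmp8 and Lcn2 are higher, and Isg15, B2m and Clec4n lower, at 400 and over than in cells without Retnlg; combination Isg15 is highest at 100 to 200 (4114 CPM).

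Treatments were then compared within Retnlg-high cells, as ratios between libraries on log2(CPM + 10), which understates the change of low genes. There were 3080 genes with enough UMIs, and a gene was counted at a ratio of at least 1.5-fold. A gene needed 50 CPM in only 1 library, so a low gene could enter through the library where it was high. Ranks of such genes are a description. The sums behind the ratios were 566848, 194024, 266598 and 207102 UMIs in the LNP-cGAMP, anti-PD-L1, combination and PBS libraries. With LNP-cGAMP 13.6% of genes were higher than with PBS and 17.4% lower, with anti-PD-L1 10.7% were higher and 19.7% lower, and with the combination 11% were higher and 17.5% lower. The medians over all genes were −0.08, −0.10 and −0.09, and TMM scaling, which moves them to 0.10, 0.07 and 0.09, turned 418 higher and 537 lower genes with LNP-cGAMP into 630 and 337. With TMM the other counts became 512 and 419 (anti-PD-L1, from 331 and 607) and 512 and 340 (combination, from 340 and 538). The 3 comparisons share the PBS library.

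Type I interferon genes were higher than in PBS cells with every treatment: 22 of 37 genes reached 1.5-fold higher with LNP-cGAMP, 18 with anti-PD-L1 and 20 with the combination, and 1, 1 and 0 were as much lower. Their median log2 ratios were 0.74, 0.53 and 0.62 in Retnlg-high cells and 0.89, 0.55 and 0.57 in Retnlg-low cells. Ifit3, an interferon-induced protein with tetratricopeptide repeats, was at 1609 CPM with LNP-cGAMP, 711 CPM with anti-PD-L1 and 1253 CPM with the combination, against 111 CPM with PBS. These are ratios to PBS of 14.5 (95% counting interval 9.59 to 23), 6.40 (4.10 to 10.4) and 11.3 (7.39 to 18.0). An Ifit3 UMI was found in 182 of 231, 45 of 87 and 71 of 121 Retnlg-high cells with the treatments, against 12 of 98 with PBS, and near-empty barcodes held it at 92.2 to 193 CPM. Reads of Ifit3 may be shared with the near-identical Ifit3b.

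Ifi27l2a, an interferon-inducible mitochondrial protein gene, was at 5167 CPM (LNP-cGAMP), 1763 CPM (anti-PD-L1) and 4429.9 CPM (combination), against 565 CPM with PBS, where near-empty barcodes held 1118 CPM. Pyhin1 was at 213, 36.1 and 124 CPM with the treatments, against 4.83 CPM (1 UMI) with PBS. Isg15 was less far apart, at 2749, 2716 and 2952 CPM with the treatments and 1386 CPM with PBS. Isg15 in treated Retnlg-high cells was thus above the 2071 CPM of PBS Retnlg-low cells.

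Cells of 100 to 200 Retnlg UMIs per 10000 gave the same order for Ifit3, at 1610 CPM with LNP-cGAMP, 795 CPM with anti-PD-L1 and 1487 CPM with the combination, against 131 CPM with PBS. Over all Retnlg-high cells, Slfn5, an interferon-stimulated schlafen gene, was at 212, 196 and 161 CPM with the treatments, against 33.8 CPM with PBS. Ifitm1, a membrane protein of the same response, was the exception with LNP-cGAMP: it was at 7699 CPM there, 21193 CPM with anti-PD-L1 and 15236 CPM with the combination, against 15606 CPM with PBS.

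H2-Q6 and H2-Q7, class I genes of the Q region that may share reads, were highest with LNP-cGAMP and next with the combination. H2-Q6 was at 162 CPM with LNP-cGAMP, 0 with anti-PD-L1 and 41.3 CPM with the combination, against 0 with PBS. With 3 UMIs set in place of each count of 0, the ratio was 11.2 for LNP-cGAMP over PBS and 2.67 for the combination over anti-PD-L1. These ratios leave out the counting error of the higher library. The combination value rests on 11 UMIs in 6 of 121 cells, of which 1 cell gave 36.4%. The gene reached 50 CPM only with LNP-cGAMP. H2-Q7 was at 295, 20.6 and 143 CPM with the 3 treatments, against 14.5 CPM with PBS. Over the 17 class I genes, 7 were at least 1.5-fold higher and 4 lower with LNP-cGAMP, 2 and 0 with anti-PD-L1, and 7 and 0 with the combination. The medians were 0.26, 0.04 and 0.31 in Retnlg-high cells, against 0.70, 0.13 and 0.41 in Retnlg-low cells.

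By the median ratio to PBS, secondary granule genes were highest with LNP-cGAMP, and gelatinase granule and mature neutrophil genes were not. Summed over their list, the latter were also highest with LNP-cGAMP, at 42091 CPM. The sums were 39861 CPM with anti-PD-L1, 35964 CPM with the combination and 32144 CPM with PBS. All 6 secondary granule genes with enough UMIs were at least 1.5-fold higher with LNP-cGAMP than with PBS (median log2 ratio 1.49), compared with 1 with anti-PD-L1 (0.45) and 3 with the combination (0.54). Lcn2 was 2.82-fold higher with LNP-cGAMP than with PBS (2.61 to 3.06), 1.39-fold with anti-PD-L1 (1.26 to 1.53) and 1.34-fold with the combination (1.22 to 1.47). Of the 11 gelatinase granule and mature neutrophil genes, 3 were at least 1.5-fold higher and 2 lower with LNP-cGAMP than with PBS (median 0.09), 4 and 3 with anti-PD-L1 (0.27), and 1 and 3 with the combination (0.17). Within that list Mmp8 was 5.56-fold higher with LNP-cGAMP (4.85 to 6.41), 1.53-fold with anti-PD-L1 (1.28 to 1.83) and 2.91-fold with the combination (2.50 to 3.39). Chil3 was at 3041 CPM with LNP-cGAMP, 608 CPM with anti-PD-L1 and 563 CPM with the combination, against 1014 CPM with PBS.

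LNP-cGAMP Retnlg-high cells also held more Retnlg, so the same genes were read in cells of a like level. The part of the Retnlg level in these differences was not tested. In cells of 100 to 200 Retnlg UMIs per 10000 (77, 60, 56 and 61 cells), Mmp8 was at 3858 CPM with LNP-cGAMP, 1480 CPM with anti-PD-L1 and 2303 CPM with the combination, against 923 CPM with PBS. Lcn2 was at 5467, 4921 and 3976 CPM in these cells with the treatments, against 2901 CPM with PBS. Chil3 was at 3470.2, 372 and 307 CPM with the treatments, against 1208 CPM with PBS. Mmp8 also differed within Retnlg-low cells, at 1294, 323 and 911 CPM with the treatments, against 217 CPM with PBS.

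Ngp was 6.09-fold higher with LNP-cGAMP than with PBS (3.41 to 12.0) and 3.15-fold higher with the combination than with anti-PD-L1 (2.01 to 5.14). As 1 cell gave 50% of the 12 PBS UMIs, the counting interval is too narrow for it. In cells of 100 to 200 Retnlg UMIs per 10000, Ngp was at 21.8, 109 and 97.0 CPM with LNP-cGAMP, anti-PD-L1 and the combination, against 69.3 CPM with PBS, so that the LNP-cGAMP cells were the lowest there.

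**Figure D4:**
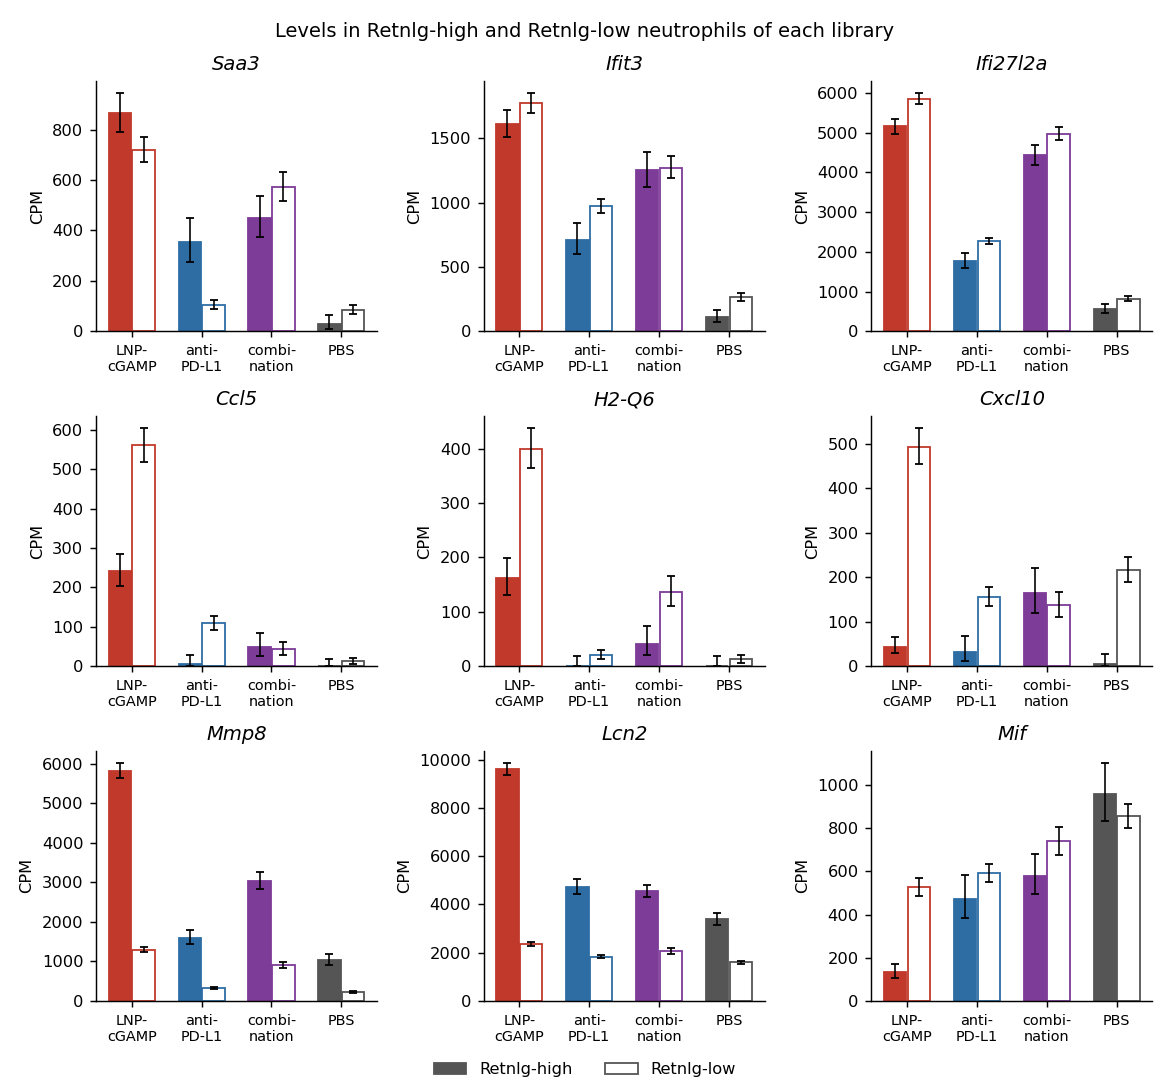
Level (CPM, linear axes) of 9 genes in Retnlg-high (filled bars) and Retnlg-low (open bars) neutrophils of each library, with 95% exact Poisson intervals for counting error (lines). Ifit3 and Ifi27l2a are lowest with PBS in both states, H2-Q6 is highest with LNP-cGAMP, and Mif is lowest in the Retnlg-high cells of the LNP-cGAMP library.

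Genes of hypoxia and glycolysis were lower in LNP-cGAMP Retnlg-high cells. With LNP-cGAMP 17 of 20 were at least 1.5-fold lower than with PBS and none was higher, with a median of −1.55, against −0.24 in Retnlg-low cells. With anti-PD-L1 8 of 20 were lower (median −0.55), and with the combination also 8 (median −0.37). Set against LNP-cGAMP, the combination had 15 of 20 genes higher (median 1.00), where 8.83% of all genes were higher and 11.7% lower.

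Mif, the macrophage migration inhibitory factor, was at 136 CPM with LNP-cGAMP, 474 CPM with anti-PD-L1 and 581 CPM with the combination, against 961 CPM with PBS. It was 7.07-fold lower with LNP-cGAMP than with PBS, and a Mif UMI was found in 48 of 231 LNP-cGAMP cells against 74 of 98 PBS cells. The glycolytic enzyme gene Tpi1 was at 109, 283 and 405 CPM with the treatments, against 589 CPM with PBS. Gapdh was at 1681, 3412 and 3169.6 CPM with the treatments, against 4998 CPM with PBS.

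Retnlg-low cells were closer together in Mif, at 526, 592 and 741 CPM with the treatments and 856 CPM with PBS. In the LNP-cGAMP library Mif was at 649 CPM in neutrophils without Retnlg, 284 CPM at 100 to 200 Retnlg UMIs per 10000 and 32.2 CPM at 400 and over. In the PBS library it was at 835, 947 and 761 CPM in the same bins. In cells of 100 to 200 the anti-PD-L1 and combination libraries held 532 and 622 CPM of Mif. Gapdh in these cells was at 1664, 3389.7 and 2885 CPM with LNP-cGAMP, anti-PD-L1 and the combination, against 5048 CPM with PBS. Whether the libraries differ in this could not be tested.

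Inflammatory cytokine genes had no common direction. Of 9 interleukin-1 and inflammasome genes 1 was at least 1.5-fold higher and 1 lower with LNP-cGAMP than with PBS (median −0.18), 1 and 3 with anti-PD-L1 (0.12), and 3 and 0 with the combination (0.03). Of 9 chemokine genes 2 were higher and 4 lower with LNP-cGAMP (median −0.39), 3 and 4 with anti-PD-L1 (−0.38), and 4 and 1 with the combination (−0.0017). After subtraction of near-empty RNA the chemokine medians for LNP-cGAMP and anti-PD-L1 were 0.31 and 0.20. Il1b was at 2734 CPM with LNP-cGAMP, 6102 CPM with anti-PD-L1 and 4978 CPM with the combination, against 5659 CPM with PBS. In the Retnlg-low cells it was at 4460.2 to 5342 CPM in every library. Cxcl2, a ligand of CXCR2, was at 1194, 1886 and 2884 CPM with the treatments, against 2965 CPM with PBS, and Cxcl3 at 134, 87.6 and 510.1 CPM, against 816 CPM. Relative to anti-PD-L1 alone, the combination had 7 of 9 chemokine genes at least 1.5-fold higher (median 1.31), where 13.2% of all genes were higher and 9.81% lower. Fos, an immediate early transcription factor gene, was at 637, 155 and 338 CPM with the treatments, against 179 CPM with PBS.

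**Figure D5:**
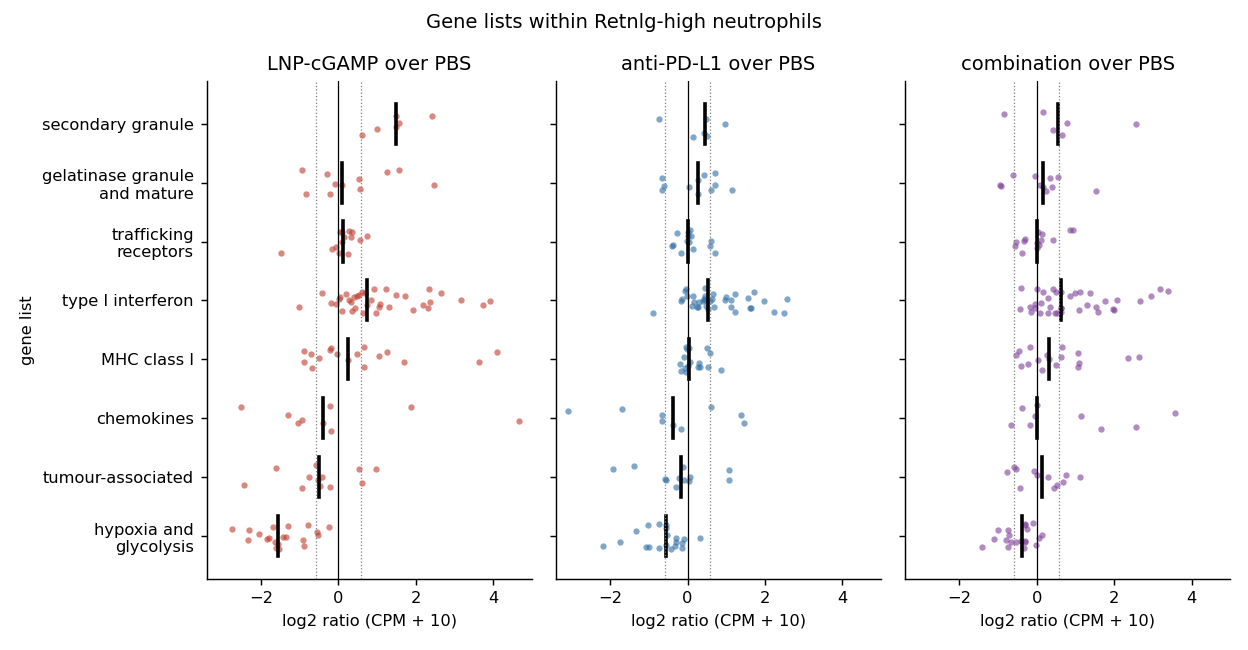
Log2 ratio (CPM + 10) of each treatment library over PBS within Retnlg-high neutrophils, for the genes of 8 lists (points) with the list medians (black bars). The interferon gene medians lie above 0 in all 3 comparisons (0.74, 0.53 and 0.62), and hypoxia and glycolysis genes lie lowest with LNP-cGAMP (median −1.55).

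The LNP-cGAMP agent could be looked at in a pair of comparisons with no library in common, LNP-cGAMP over PBS and the combination over anti-PD-L1. In both, 84 genes were at least 1.5-fold higher (2.73%) and 58 lower (1.88%). Among the 8 highest were H2-Q6, H2-Q7, Ccl5, Cxcl10, Ptpn22, Ngp and Pyhin1. Ptpn22, a phosphatase gene, was at 122, 5.15 and 37.5 CPM with the treatments, against 24.1 CPM with PBS. Its log2 ratio of the combination over anti-PD-L1 was 1.65, and −0.20 in cells of at least 200 Retnlg UMIs per 10000.

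Ccl5 was at 242 CPM with LNP-cGAMP, 5.15 CPM with anti-PD-L1 and 48.8 CPM with the combination, against 0 with PBS. One LNP-cGAMP cell gave 40.9% of the 137 Ccl5 UMIs there, the LNP-cGAMP near-empty barcodes held 1555 CPM of it, and the part of free RNA in the result was not tested. Cxcl10 rested on 7, 4 and 8 cells with the treatments and 1 cell with PBS. The 6 lowest were Scimp, Ctse, Rnaset2a, Fundc1, Nek7 and Ncl, at 10.6 to 33.5 CPM with LNP-cGAMP and 48.3 to 82.1 CPM with PBS.

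The anti-PD-L1 antibody was looked at over anti-PD-L1 over PBS and the combination over LNP-cGAMP, in which 39 genes were at least 1.5-fold higher in both (1.27%) and 83 lower (2.69%). The 5 highest were Cxcl10, Ruvbl2, Ccl4, Ppp1r15a and Upp1. Cxcl10 rested on 6 UMIs in 4 of 87 anti-PD-L1 cells, against 1 UMI with PBS. It reached 50 CPM only with the combination, where 1 cell gave 40.9% of its 44 UMIs. Upp1, a uridine phosphorylase gene, was at 1907 CPM with anti-PD-L1 and 2157 CPM with the combination, against 647 CPM with LNP-cGAMP and 927 CPM with PBS. Ccl4, a chemokine gene, was at 407 CPM with anti-PD-L1 and 345 CPM with the combination, against 67.0 CPM with LNP-cGAMP and 149.7 CPM with PBS, and 1 combination cell gave 47.8% of its UMIs there. The 4 lowest, Zfp710, Anapc5, Emc6 and Ptpn22, were at 5.15 to 15.5 CPM with anti-PD-L1 and 24.1 to 62.8 CPM with PBS. For Anapc5 and Ptpn22 the log2 ratio of anti-PD-L1 over PBS, −1.26 and −1.17, was 0.27 and 1.46 in cells of at least 200 Retnlg UMIs per 10000.

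Saa3, an acute phase serum amyloid gene, had the highest ratio of the combination over PBS, at 450.1 CPM against 29.0 CPM, followed by Cxcl10, Ifit3, Pyhin1 and Ifi27l2a. A Saa3 UMI was found in 55.4%, 8.05% and 49.6% of Retnlg-high cells with LNP-cGAMP, anti-PD-L1 and the combination and 6.12% with PBS. T cell barcodes held one in 68.4%, 13.5%, 78.3% and 3.64% in the same order. Its log2 ratio of 3.56 became 1.82 after subtraction of near-empty RNA, and the part of free RNA in the result was not tested. A single cell gave 42.6%, 87.0% and 28.3% of the Retnlg-high Saa3 UMIs with the treatments. The 4 genes with the lowest ratio were Rnaset2a, Bhlhe40, Trak2 and Skiv2l. Bhlhe40, a transcription factor gene, was at 7.50 CPM with the combination, 10.6 CPM with LNP-cGAMP and 5.15 CPM with anti-PD-L1, against 77.3 CPM with PBS. It passed the limit of 50 CPM through PBS alone, so its low ratio is in part a product of how it was chosen.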

How the data were processed

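Pleural cells of 4 libraries were measured by droplet RNA sequencing (10x Genomics 3′ chemistry). The labels name kit versions that conflict, so the version is not given. The deposited values are raw UMI counts of genes in barcodes. The file headers name Cell Ranger 3.0.2, and the submitters' processing notes name mm10. Near-empty barcodes were still in them, and nothing was normalized by the authors. Rows that share a symbol were summed (56 symbols). No doublet caller was run.

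The cells, gene lists and tests were chosen with earlier results of these data known. UMIs were summed per library and state, without the 5 rule genes. The states were tested with edgeR 4.0.16 (R 4.3.3, filterByExpr, TMM, library as block), tested on simulated counts, and DESeq2 1.42.0 was an alternative. Replicate numbers are all 1, so the library itself pairs the states. Treatments were compared by ratios on log2(CPM + 10) for genes with 20 UMIs over the libraries and 50 CPM in 1 of them. Thinning drew 1000 UMIs from each cell. Intervals are 95% exact Poisson, exact conditional (ratios) or exact binomial. Genes were named by rank of fold change (for states, called, of 1 sign in all libraries and at 50 CPM or more on average), with Gm, Rik, mt-, ribosomal, haemoglobin and sex-linked genes left out, or as members of lists, and some are not reported here. Promoter windows came from RefSeq (GRCm38.p6) for 36 of 53 genes named by rank.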

Additional observations from a re-analysis of the deposited data

How the results depend on the processing

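Shares moved most with the Retnlg limit: at 50 per 10000 they were 40.8% (LNP-cGAMP), 26.6% (anti-PD-L1), 43.8% (combination) and 23.5% (PBS), and at 200 they were 19.5%, 3.72%, 14.0% and 5.68%. A lower bound of 2000 UMIs gave 35.7% with LNP-cGAMP and 18.2% with PBS. Both libraries with LNP-cGAMP stayed above anti-PD-L1 and PBS under every alternative run.

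For the states, DESeq2 called 107 genes higher and 53 lower, thinned cells 95 and 83, and no filter on low counts 266 lower. The library block carries the pairing of the states, and without it 27 genes were higher and 7 lower. Leaving out 1 library gave 123 to 185 higher and 82 to 122 lower. No gene among the 30 named by fold change turned its sign, and 25 of 388 values of these genes under alternatives lost the call. The block accounts for 15 of those. Thinning lost Ankrd37, Cdkn1a, Ggct and Olfr56.

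For treatments, a filter at 10 CPM in place of 50 gave 715 genes higher for LNP-cGAMP over PBS, 563 higher and 964 lower for anti-PD-L1 over PBS, 585 and 882 for the combination over PBS, 428 and 671 for the combination over LNP-cGAMP, and 741 and 532 for the combination over anti-PD-L1, since more genes enter. TMM gave 630 higher and 337 lower (LNP-cGAMP over PBS), 512 higher (anti-PD-L1 over PBS), and 512 and 340 (combination over PBS). The Retnlg limit of 200, which leaves fewer cells, gave 697 higher (LNP-cGAMP over PBS), 716 (anti-PD-L1 over PBS), 619 (combination over PBS), and 703 higher and 616 lower for the combination over anti-PD-L1. Rule genes kept in the sums gave 264 (LNP-cGAMP), 195 (anti-PD-L1) and 194 (combination) higher than PBS, and 244 and 188 for the combination over anti-PD-L1. Thinning gave 468 lower in that last comparison. Cells with a Y-linked UMI and no Xist UMI (69 with LNP-cGAMP, 24 with PBS) gave 313 lower; the other libraries had 4 and 2 such cells and were not run.

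Among treatment ratios and list medians at least 1.5-fold from PBS or the other library, signs turned in 5 cases, whose cause was not tested. The median of 4 proliferation genes, LNP-cGAMP over PBS, was −0.76, against 0.68 in those cells and 0.29 with near-empty RNA subtracted. At the Retnlg limit of 200, anti-PD-L1 over PBS was 0.27 for Anapc5 and 1.46 for Ptpn22, and the combination over anti-PD-L1 was −0.20 for Ptpn22. For LNP-cGAMP over PBS the medians ranged from 1.39 to 1.74 for secondary granule genes, from 0.66 to 0.91 for interferon genes and from −1.76 to −1.32 for hypoxia and glycolysis genes. Medians nearer 0 also turned: that of chemokines, −0.39, was 0.31 with near-empty RNA subtracted. The settings of 1500 to 5000 UMIs, of rule genes kept and, for the states, of near-empty RNA subtracted were chosen after seeing the data. Depth limits genes of few UMIs: 1 UMI is 5.15 CPM in the smallest sum.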
